A study of Mus musculus with 4 samples.

Results

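The nuclear genes of the mitochondrial respiratory chain and ATP synthase were examined in liver macrophages sorted by a lineage reporter. Members were taken by gene name: names starting with Nduf, Uqcr or Atp5, with Cox followed by 4, 5, 6, 7 or 8, and Sdha, Sdhb, Sdhc and Sdhd. Of 23337 gene names in the tables, 90 followed this rule, and each had a single row of its own. By textbook assignment 40 belonged to complex I, 4 to complex II, 8 to complex III, 20 to complex IV and 17 to complex V. Of the 90, 81 encode subunits and 9 do not. Those 9 are the complex I assembly factors Ndufaf1 to Ndufaf4, the supercomplex factor Cox7a2l, the paralogue Ndufa4l2, and Atp5s, Atp5sl and Cox4nb, which share only the name. Cox4nb was put in no complex.

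The cells came from Lyz2cre-RosaYFP mice of both sexes, aged 6 to 8 weeks, which carried no other stated allele or treatment. In these mice Cre recombinase is made from the lysozyme 2 gene, active in myeloid cells, and switches on yellow fluorescent protein (YFP) in the cell and its progeny. Total RNA was sequenced from 2 libraries of YFP+ and 2 of YFP- Kupffer cells (macrophages that reside in the liver), and both groups carried the same Cre and reporter. In each group the title of 1 library starts with M and that of the other with FM. Neither the meaning of these letters nor whether the libraries came from separate animals is stated. The p-values therefore rest only on spread between these libraries, which may be technical. In the fit on the deposited scale that spread is a trend over all genes, not the gene's own.

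Libraries differed in ways that touch every result below. Values are given in TPM (transcript abundance, a level per length of transcript that sums to the same total in each library), and the M library is always named before the FM library. The number of genes with at least 1 TPM was 10302 and 7386 in the YFP+ libraries and 12434 and 12829 in the YFP- libraries, so the YFP+ FM library had the fewest. The mean coverage of a gene at 1 FPKM, the only measure of depth in the tables, was 4.81 and 2.60 in YFP+ and 9.19 and 2.59 in YFP- libraries. Kupffer cell markers were present in all libraries (5 of 10 higher in YFP+, but 0 under quantile normalization and loess and 4 under median-ratio scaling; summed level 47349 and 49134 against 14990 and 26528 TPM). Microglia markers went against the labelled tissue in the YFP- libraries: 10 of 10 were lower in YFP+ (10 under quantile normalization, 8 under median-ratio scaling and 3 under loess), with sums of 1263 and 121 against 21474 and 19138 TPM. None of those 10 was listed at 0 in any library, and their part in the results was not tested. The median log2 difference over all 12251 tested genes was -1.73 on the deposited scale, so every difference below is read beside that shift. In bulk RNA, fewer cells of a type and less RNA per cell cannot be told apart.

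The respiratory chain passes electrons from nutrients to oxygen across the inner mitochondrial membrane. Complex I takes them from NADH and complex II from succinate, ubiquinone carries them to complex III, cytochrome c carries them on to complex IV, and the proton gradient built on the way drives complex V, the ATP synthase. Core subunits hold the flavin, iron-sulfur, haem and copper centres or do the catalysis, and some are made inside the mitochondrion from its own genome. Accessory subunits, all nuclear, surround the core. Several subunits of complex IV have another copy used in heart and skeletal muscle, smooth muscle, lung or testis. In macrophages the chain is known to shift with activation, when complex II and complex I take part in the making of reactive oxygen species.

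The 250 bases before the start of 3 members are shown because the results below describe these genes at length. Cox5a was the member with the largest positive difference, Uqcr10 the complex III subunit with the largest positive difference, and Sdha the complex II subunit with the largest negative one. The sequences are from RefSeq on GRCm38.p6 and run 5′ to 3′ on the strand of the gene: Cox5a from chr9:57520982-57521231 (plus strand), Sdha from chr13:74350241-74350490 (minus strand) and Uqcr10 from chr11:4704345-4704594 (minus strand). Capitals mark the letters GCGCANGCG, the motif of NRF1, a factor known for its sites before genes of the respiratory chain.
Cox5a: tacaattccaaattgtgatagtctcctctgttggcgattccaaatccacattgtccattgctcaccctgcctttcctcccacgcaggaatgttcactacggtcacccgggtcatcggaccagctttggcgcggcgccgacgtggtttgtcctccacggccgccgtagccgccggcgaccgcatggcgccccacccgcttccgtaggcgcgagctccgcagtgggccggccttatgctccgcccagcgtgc
Sdha: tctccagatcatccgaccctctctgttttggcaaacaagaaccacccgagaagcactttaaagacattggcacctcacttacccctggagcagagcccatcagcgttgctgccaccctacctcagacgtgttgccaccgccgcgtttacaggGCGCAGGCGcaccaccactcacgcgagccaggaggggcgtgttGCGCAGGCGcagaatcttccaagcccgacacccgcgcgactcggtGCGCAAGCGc
Uqcr10: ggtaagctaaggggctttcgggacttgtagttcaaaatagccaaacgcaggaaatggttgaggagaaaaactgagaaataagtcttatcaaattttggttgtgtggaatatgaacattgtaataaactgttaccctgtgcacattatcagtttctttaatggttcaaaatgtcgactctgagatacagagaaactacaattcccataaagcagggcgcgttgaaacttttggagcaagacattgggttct
The Sdha window held 3 matches, while those of Cox5a and Uqcr10 held none of the 4 motifs searched on both strands. Of the 90 members 74 had an entry, and 14 of these (18.9%) held the NRF1 letters, against 5.16% of all 32851 windows of the same length. Each member gave the 1 window nearest its start, while the background counts every window and may hold several per gene. The ETS letters CCGGAAG stood in 12 (16.2%, against 6.91% of all), YY1 (AAGATGGCG) in 1 (1.35%, against 0.606%) and ERR (TCAAGGTCA) in 1 (1.35%, against 0.387%). A match is a description of letters, not of binding.

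Of the 90 members, 87 passed the filter of at least 1 TPM in at least 2 libraries. Cox7b2 and Cox8c, testis copies of complex IV subunits, were listed at 0 in all 4 libraries, and Cox8b, a muscle copy, reached 0.558 TPM in the YFP- M library alone. Together the 90 genes held 15426 and 15822 TPM in the YFP+ libraries (1.54% and 1.58% of all transcripts) and 20091 and 10202 TPM in the YFP- libraries (2.01% and 1.02%). Both YFP+ libraries thus lay between the YFP- libraries, and the summed level did not separate the groups. The plot of levels by complex shows the spread within each library.

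**Figure D1:**
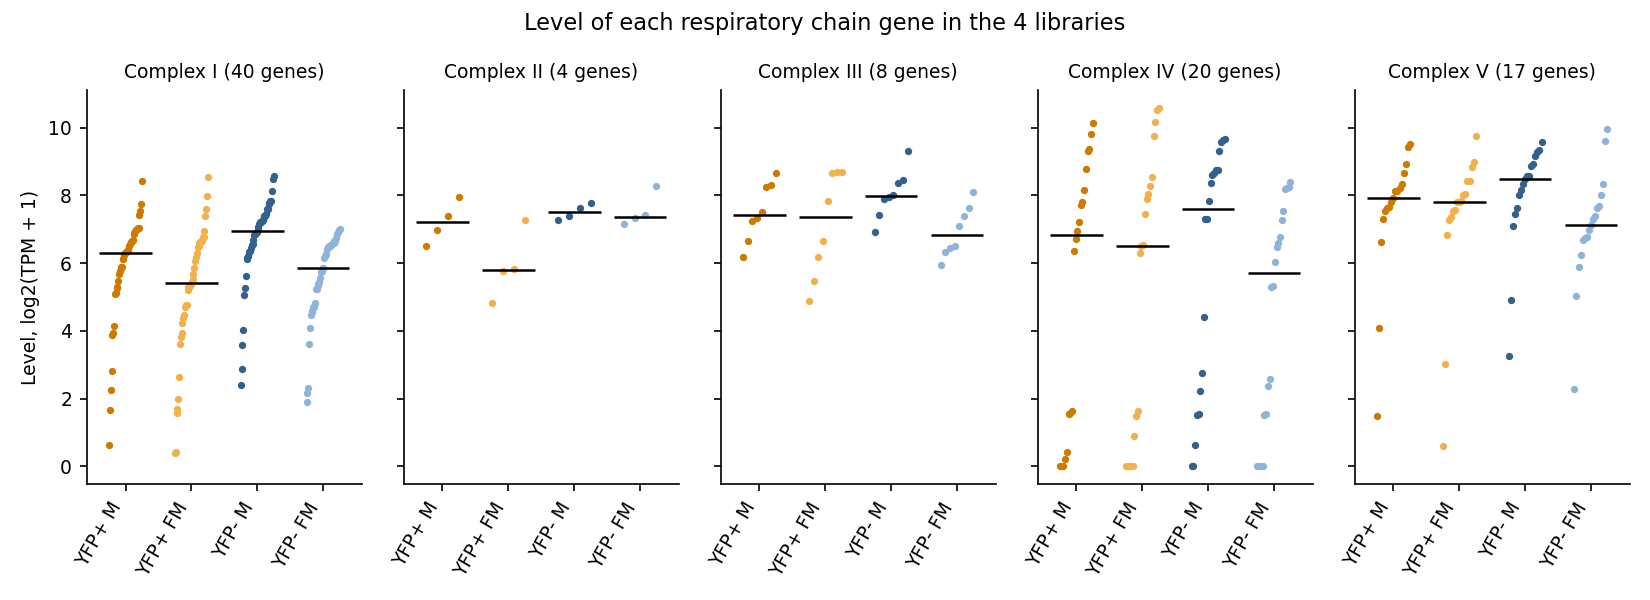
Level of each of the genes of complexes I to V, in log2(TPM + 1), in the 4 libraries; each point is a gene, sorted by level within a library, and the bar is the median. The YFP- M library had the highest median in all 5 complexes, and the points near 0 in complex IV are the tissue copies.

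In the limma fit over all 12251 genes, with Benjamini-Hochberg adjustment at 0.05, 1 member was higher in YFP+ libraries and 5 were lower. Cox5a rose, and Ndufs1, Ndufa4l2, Cox4i2, Ndufaf1 and Ndufaf4 fell. Of all genes tested, 0.522% were called higher and 39.5% lower, so fewer members were called lower than that background share. Fewer members were also lower in both libraries without overlap: 23 members, with 79.7% of all genes as background. Another 5 (Atp5d, Atp5k, Cox5a, Cox8a and Uqcr10) were higher without overlap, against 2.5% of all genes. The members' median difference was -0.31 (range -3.32 to 2.08), 1.42 above the median of all genes. It stayed above that median under each other scaling tried, by 0.92 after quantile normalization, 2.02 after median-ratio scaling, 0.67 after cyclic loess and 1.48 on FPKM. The sign of the median did not hold: it was 0.88, 1.94, 0.66 and 0.22 under those 4. The gap also moved with level. On the deposited scale the 812 tested genes at or above the members' median level had a median of -0.13, and the 44 members there 0.19. Much of the gap to all genes was therefore shared by other strongly expressed genes. Calls moved as well. Under quantile normalization 1 member was called higher (Cox7a1; 1.21% of all genes) and 0 lower (1.67%), and under median-ratio scaling 16 were called higher (5.62% of all genes) and 1 lower (5.9%). Under loess no member was called (0.531% of all genes higher and 0.327% lower), and on FPKM 1 was higher (1.02%) and 4 were lower (30.8%). With a block for the title start 0 were higher (0.188% of all genes) and 2 lower (14.1%). A statement of higher or lower for these genes as a group therefore depends on the scaling.

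The members differed in direction between the libraries that share a title start. In the M libraries 77 of 87 were lower in YFP+ (86.0% of all genes were), with a median of -0.68. In the FM libraries 50 of 87 were higher in YFP+ (5.68% of all genes were), with a median of 0.12 where all genes had -2.48. Both held for 42 members, lower in the M pair and higher in the FM pair, against 2.5% of all genes. Another 35 were lower in both pairs, 8 were higher in both and 2 were higher in the M pair only. Members are strongly expressed, and level moves with this count: of the 812 tested genes at or above the members' median level, 16.7% were lower in the M pair and higher in the FM pair, and of the 44 members at or above it 63.6% were. The difference between the pairs was not tested, since each pair holds 1 library of each kind.

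**Figure D2:**
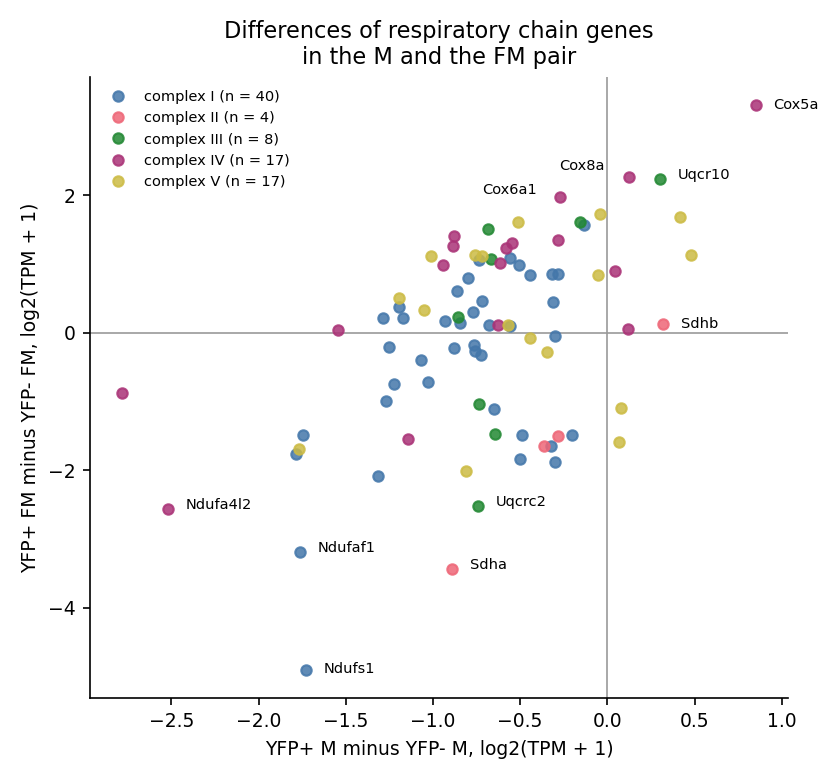
Difference YFP+ minus YFP-, in log2(TPM + 1), of the 86 tested genes of complexes I to V in the M libraries (x axis) and the FM libraries (y axis); each point is a gene, coloured by complex. Most points lie left of 0, and they spread from Ndufs1 at the bottom to Cox5a at the top along the FM axis.

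Complex I, the NADH dehydrogenase, had 0 members higher and 3 lower of 40 tested in the limma fit (0 higher and 3 lower at an unadjusted p under 0.05). The 3 were the core subunit Ndufs1 and the assembly factors Ndufaf1 and Ndufaf4. Their share of complex I was below the 39.5% of all genes called lower. The median difference was -0.50, which is 1.23 above all genes. Under median-ratio scaling 7 complex I genes were called higher and 0 lower.

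Ndufs1, on chr1:63143592-63176822 (mm10), is the largest subunit of the arm that takes up NADH and carries iron-sulfur clusters. It stood at 13.7 and 2.21 TPM in YFP+ and at 47.8 and 95.0 TPM in YFP- libraries, so the groups did not overlap. The means were 7.97 ± 8.15 against 71.4 ± 33.4 TPM (SD, n = 2 each), a log2 difference of -3.32 (SE 1.10, limma adjusted p = 0.0128). This was the most negative value of any member. The call was lost under quantile normalization (limma adjusted p = 0.174), median-ratio scaling (0.137), loess (0.184) and without any one library other than YFP+ M, with limma adjusted p between 0.132 and 0.680.

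The other 6 nuclear core subunits were also on the negative side, and none passed. Ndufv1, which binds NADH and flavin, had 69.5 and 36.2 TPM in YFP+ against 87.1 and 115 TPM in YFP-. Ndufs3 had 94.5 and 40.8 TPM against 149 and 89.7 TPM, and here the groups overlapped. Ndufs8, an iron-sulfur subunit of the connecting arm, had 124 and 88.4 TPM against 154 and 91.5 TPM. In Ndufs7, its partner, the YFP+ libraries (102 and 108 TPM) lay between the YFP- libraries (175 and 87.6 TPM). Ndufv2, which holds an iron-sulfur cluster beside Ndufv1, had 57.8 and 14.4 TPM against 81.6 and 42.2 TPM. The median of the 7 core subunits was -0.88, with -0.49 in the M pair and -1.49 in the FM pair.

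The 29 accessory subunits had a median of -0.38, and none was called in either direction (0 at an unadjusted p under 0.05). All 29 were lower in YFP+ in the M libraries, and 18 were higher in YFP+ in the FM libraries. Ndufa2, an accessory subunit of the NADH arm, had the highest mean level and the largest positive difference of complex I. It had 346 and 374 TPM in YFP+ and 380.2 and 126 TPM in YFP- libraries (log2 difference 0.71, SE 0.85, limma adjusted p = 0.466). The YFP- libraries lay on both sides of the YFP+ libraries. At the other end Ndufb3, of the membrane arm, had 33.7 and 11.2 TPM against 119 and 40.4 TPM (-1.78, limma adjusted p = 0.145), without overlap. Ndufb7, also of the membrane arm, had 81.1 and 99.0 TPM against 142 and 56.7 TPM, a difference of 0.00 on the log2 scale. Ndufs5 had 2.14 and 1.97 TPM against 6.33 and 3.99 TPM, but a transcript of the same strand, BC002163, covers its place and had 71.0 and 59.2 TPM against 145 and 56.7 TPM, so the split of reads between both is uncertain. Ndufb3, Ndufb7, Ndufs5 and the core subunits other than Ndufs1 were chosen for naming after their values were seen.

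The ratio of the core median to the accessory median within a library was 1.17 and 0.723 in YFP+ and 1.11 and 1.61 in YFP- libraries, which overlapped. The ratio of Ndufs1 to Ndufa2, the subunits of lowest and highest difference, was 0.0396 and 0.00590 in YFP+ and 0.126 and 0.752 in YFP- libraries, and these did not overlap. A ratio within a library does not depend on a single scaling factor per library. Quantile normalization and loess change values by level and can alter it.

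Assembly factors build complex I but are not part of it. Ndufaf1, which joins the early membrane intermediate, had 3.80 and 0.334 TPM in YFP+ against 15.3 and 11.2 TPM in YFP- libraries, and fell by 2.47 on the log2 scale (limma adjusted p = 0.0418). Ndufaf4 had 0.565 and 0.317 TPM against 4.24 and 2.70 TPM, and fell by 1.62 (limma adjusted p = 0.00860). Ndufaf3, the partner of Ndufaf4, had 14.5 and 5.19 TPM against 37.6 and 25.3 TPM and did not pass (-1.70, limma adjusted p = 0.191). In Ndufaf2 the groups overlapped, at 5.99 and 2.98 TPM against 10.9 and 3.53 TPM (-0.48, limma adjusted p = 0.694). Both calls were lost under quantile normalization, with limma adjusted p of 0.528 for Ndufaf1 and 0.926 for Ndufaf4. The median of the 4 was -1.66, close to the median of all genes.

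Complex II, succinate dehydrogenase, is encoded wholly in the nucleus and also works in the tricarboxylic acid cycle. None of its 4 subunits passed in either direction (limma, 0 higher and 1 lower at an unadjusted p under 0.05). Under median-ratio scaling 1, Sdhb, was called higher. The flavoprotein subunit Sdha, on chr13:74322255-74350240, had 90.0 and 27.6 TPM in YFP+ and 168 and 309 TPM in YFP- libraries. The means were 58.8 ± 44.1 against 238 ± 100.2 TPM (SD, n = 2 each), a log2 difference of -2.17 (SE 0.94, limma adjusted p = 0.0528). Its sign turned under median-ratio scaling (0.11) and was kept under quantile normalization (-1.10) and loess (-1.20). Without the YFP+ M library its limma adjusted p was 0.0114.

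The iron-sulfur subunit Sdhb, the partner of Sdha in the catalytic head, differed in pattern from Sdha. It had 249 and 153 TPM in YFP+ and 199 and 141 TPM in YFP- libraries (log2 difference 0.22, limma adjusted p = 0.835), higher in YFP+ within each title start but overlapping between groups. The membrane anchors Sdhc, with 127 and 56.0 TPM against 154 and 160.4 TPM, and Sdhd, with 169 and 53.6 TPM against 217 and 170.2 TPM, were both lower in YFP+ without overlap and did not pass (limma adjusted p = 0.408 and 0.344). Of the 4 subunits 3 were lower without overlap, close to the share of all genes (79.7%). The ratio of Sdha to Sdhb, which form 1 pair per complex, was 0.361 and 0.180 in YFP+ and 0.841 and 2.20 in YFP- libraries. The ratio of Sdhc to Sdhd was 0.751 and 1.05 against 0.710 and 0.942, and these overlapped.

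Complex III, which passes electrons from ubiquinol to cytochrome c, had 8 members tested and 0 called in either direction (limma, 0 at an unadjusted p under 0.05, and 2 higher under median-ratio scaling, Uqcr10 and Uqcr11). The median was -0.06, with -0.67 in the M pair and 0.64 in the FM pair. Its large core proteins lay below the small subunits in the difference between groups. Uqcrc1 had 152 and 99.2 TPM in YFP+ against 238 and 277 TPM in YFP- libraries (-1.06, limma adjusted p = 0.307). Uqcrc2 had 101 and 28.5 TPM against 169 and 168 TPM (-1.63, limma adjusted p = 0.143), the most negative difference in the complex. The Rieske iron-sulfur protein Uqcrfs1 had 71.5 and 43.5 TPM against 119 and 90.1 TPM. In all 3 the groups did not overlap. These were the only 3 of the 8 members lower without overlap, where 79.7% of all genes were.

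All 5 small subunits were higher in YFP+ in the FM libraries. Uqcr10, which sits beside the Rieske protein, had 302 and 407 TPM in YFP+ and 245 and 85.8 TPM in YFP- libraries, without overlap (log2 difference 1.27, SE 0.87, limma adjusted p = 0.210). Uqcrh, the hinge protein that helps bind cytochrome c, had the highest mean level of the complex, with 402 and 412 TPM between the YFP- values of 638 and 196 TPM (0.20, limma adjusted p = 0.837). Uqcrq followed the same order of libraries, with 160.5 and 226 TPM against 258 and 78.8 TPM. In Uqcr11, with 315 and 412 TPM against 351 and 135 TPM, the YFP+ FM library was the highest. Uqcrb, which lines the ubiquinone pocket, had 181 and 71.0 TPM against 329.8 and 60.7 TPM. The ratio of Uqcrc2 to Uqcr10 was 0.334 and 0.0699 in YFP+ and 0.691 and 1.96 in YFP- libraries. The core median over the accessory median was 0.419 and 0.157 against 0.617 and 2.59, so the proportion of core to small subunits did not overlap between the groups.

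Complex IV, cytochrome c oxidase, reduces oxygen to water, and its nuclear subunits surround a catalytic core made from mitochondrial genes. Of 17 members tested 1 was higher and 2 were lower (0.522% and 39.5% of all genes), and the median of 0.20 was 1.93 above all genes. Of the 11 subunits used in most tissues 10 had a positive difference, and all 11 were higher in YFP+ in the FM libraries. In the M libraries 9 of those 11 were lower in YFP+. Ndufa4, named for complex I but now assigned to complex IV, was counted here.

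Cox5a, on chr9:57521232-57532426, is a nuclear subunit of the matrix side that binds Cox4 and is needed for the holoenzyme. It had 1136 and 1521 TPM in YFP+ and 629 and 153 TPM in YFP- libraries, higher in both YFP+ libraries than in either YFP- library. The means were 1328 ± 272 against 391 ± 337 TPM (SD, n = 2 each). It rose by 2.08 on the log2 scale, or 4.23-fold (SE 0.77, limma adjusted p = 0.0252). The difference was 0.85 in the M pair and 3.31 in the FM pair. The call was lost under quantile normalization (limma adjusted p = 0.217), loess (0.195), no filter (0.0524) and the title start as a block (0.130), and kept under median-ratio scaling (0.0240) and on FPKM (0.00747). Leaving out YFP+ M, YFP+ FM or YFP- FM also ended it, with limma adjusted p of 0.0685, 0.223 and 0.680, and without YFP- M it was 0.000966. Its partner subunits gave a reference within each library. The ratio of Cox5a to Cox5b was 5.40 and 5.77 in YFP+ and 1.61 and 1.40 in YFP- libraries, and that of Cox5a to Cox4i1 was 1.72 and 1.75 against 0.783 and 0.449. Neither ratio overlapped between the groups, and Cox5a was in the comparison as the member with the largest positive difference.

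The other abundant subunits of complex IV showed a smaller difference. Cox8a, the common copy of the smallest subunit and the member with the highest mean level in the complex, had 892 and 1462 TPM in YFP+ and 819.5 and 304 TPM in YFP- libraries (1.19, SE 0.76, limma adjusted p = 0.176), without overlap. Cox6a1, the non-muscle copy of subunit VIa, had 629.9 and 1143 TPM against 759 and 291 TPM (0.85, limma adjusted p = 0.341). Cox4i1, the common copy of the largest nuclear subunit, had 659.8 and 869 TPM against 803 and 339.7 TPM (0.53, limma adjusted p = 0.551). Cox6b1, which faces cytochrome c, had 283 and 369.8 TPM against 433 and 184 TPM. Cox7a2, with 81.1 and 77.1 TPM against 157 and 38.6 TPM, Cox7b, with 104 and 92.4 TPM against 156 and 38.9 TPM, and Ndufa4, with 147 and 89.4 TPM against 431 and 87.3 TPM, stood between or close to the YFP- libraries. In all of these but Cox8a the groups overlapped. Cox7a2l, which helps join complexes III and IV, had 438 and 309 TPM against 403 and 297 TPM, a log2 difference of 0.09 (limma adjusted p = 0.929).

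The tissue copies of complex IV subunits were at or near the lower end of the tables. Cox4i2, the lung and smooth muscle copy, on chr2:152754173-152765037, had 0.332 TPM and a listed 0 in YFP+ and 1.95 and 1.93 TPM in YFP- libraries, and fell by 1.35 on the log2 scale (SE 0.35, limma adjusted p = 0.00168). Ndufa4l2, the hypoxia-induced paralogue known from pericytes, on chr10:127514939-127517156, had 0.169 TPM and a listed 0 against 5.70 and 4.93 TPM, and fell by 2.54 (SE 0.53, limma adjusted p = 0.000194). The Cox4i2 call was lost under quantile normalization (limma adjusted p = 0.816), loess (0.918) and median-ratio scaling (0.166), and without the YFP+ FM library (0.109). The Ndufa4l2 call was lost under quantile normalization (0.0877) and loess (0.158), and kept under median-ratio scaling (0.0112) and without YFP+ FM (0.0200), by limma in each case. Shmt2 lies over the Ndufa4l2 gene on the other strand, with 21.8 and 7.73 TPM against 27.4 and 52.7 TPM, and since the use of strand in counting is not stated, reads of both cannot be told apart.

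Markers of several other cell types were lower in YFP+ libraries along with these 2 genes. Of the 8 pericyte and smooth muscle markers tested 7 were lower (1 under quantile normalization, 1 under loess and 5 under median-ratio scaling), with sums over the list of 19.2 and 17.0 against 144 and 205 TPM, and the pericyte marker Rgs5 had 0.471 TPM and a listed 0 against 11.2 and 6.95 TPM. Of the endothelial markers 5 of 8 were lower, with sums of 329 and 157 against 1110 and 964 TPM, as were 5 of 6 astrocyte, 3 of 5 myelin and 2 of 3 neuron markers. Of all genes tested, 39.5% were called lower. Fewer markers were lower in the hepatocyte (1 of 7 tested), neutrophil (1 of 7) and erythroid (0 of 4) lists. Hepatocyte sums were 319 and 655 against 1394 and 2047 TPM. Neutrophil sums (1619 and 7090 against 2180 and 4257 TPM) and erythroid sums (9567 and 7516 against 9189 and 9633.5 TPM) overlapped between the groups. Under quantile normalization, median-ratio scaling and loess the lower calls were 3, 4 and 1 for endothelium and 1, 3 and 0 for astrocytes. They were 3, 3 and 1 for myelin and 0, 2 and 0 for neurons. Each of these scalings called 1 neuron marker higher, and median-ratio scaling called 2 endothelial markers higher. The part of any of these cells in the Cox4i2 and Ndufa4l2 values was not tested. Cox6a2, a heart and skeletal muscle copy, had 2.10 and 1.80 TPM in YFP+ against 20.3 and 4.16 TPM in YFP- libraries (-1.83, limma adjusted p = 0.113). Cox7a1, also a muscle copy, had 1.92 and 0.854 TPM against 1.84 TPM and a listed 0 (0.47, limma adjusted p = 0.297), and was called higher under quantile normalization (limma adjusted p = 0.0446) and median-ratio scaling (0.0393). Sums over 9 muscle markers were 11.8 and 2.41 TPM in YFP+ and 10.5 and 12.2 TPM in YFP- libraries, with 4 and 7 of the 9 listed at 0 in YFP+ and 1 and 5 in YFP-, and their part was not tested. Cox6b2, a testis copy, had 2.00 and 2.11 TPM against 3.64 and 1.89 TPM, with germ cell marker sums of at most 0.36 TPM in any library.

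As a share of both copies within a library, the tissue copies stayed small. Cox4i2 made up 0.0503% and 0% of the Cox4 level in YFP+ and 0.242% and 0.565% in YFP- libraries. Cox6a2 made up 0.332% and 0.157% of the Cox6a level against 2.60% and 1.41%. For both, the YFP- libraries were higher without overlap. Cox7a1 made up 2.32% and 1.10% of the Cox7a level (Cox7a1 and Cox7a2) against 1.16% and 0%, and Cox6b2 made up 0.702% and 0.567% of the Cox6b level against 0.832% and 1.02%. The common copies thus held nearly the whole level of each subunit in all 4 libraries.

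Complex V makes ATP as protons pass its ring of c subunits and turn the stalk in the F1 head. None of its 17 members passed in either direction (limma, 0 higher and 1 lower, Atp5s, at an unadjusted p under 0.05), and 3 were called higher under median-ratio scaling (Atp5d, Atp5k and Atp5o). The median was -0.23, with -0.51 in the M pair and 0.50 in the FM pair. Over the 15 subunits, without Atp5s and Atp5sl, the median was 0.05. In the F1 head, the catalytic subunit Atp5b had the highest mean level, with 691 and 462 TPM in YFP+ and 654 and 992 TPM in YFP- libraries (-0.51, limma adjusted p = 0.566). Its partner Atp5a1 had 487 and 260.5 TPM against 465 and 788 TPM (-0.76, limma adjusted p = 0.408), with the same order of libraries. Atp5d, of the central stalk, had 244 and 344 TPM against 175 and 157 TPM (0.80, limma adjusted p = 0.426), without overlap, and Atp5e, beside it, had 402 and 511 TPM against 574 and 167 TPM.

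The membrane subunit Atp5k, involved in pairing of the synthase, had 184 and 188 TPM in YFP+ and 137 and 57.7 TPM in YFP- libraries (1.05, limma adjusted p = 0.325), without overlap. Atp5l, of the same part, had 222 TPM in both YFP+ libraries against 377 and 101 TPM, and Atp5j2 had 196 and 229 TPM against 324 and 105 TPM. The peripheral stalk subunits were lower in YFP+ in the M libraries and, except Atp5f1 (201 and 113 against 256 and 138 TPM), higher in the FM libraries. They were Atp5h, with 298 and 259.5 against 618 and 207 TPM, Atp5j, with 156 and 153 against 359 and 108 TPM, and Atp5o, with 277 and 224 against 288 and 124 TPM.

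The c subunit is made from 3 genes that encode the same mature protein. Atp5g3 had 739 and 861 TPM in YFP+ against 761 and 259.8 TPM in YFP- libraries (0.84, limma adjusted p = 0.350). Atp5g2 had 326 and 346 TPM against 484 and 319.9 TPM, and Atp5g1 had 97.3 and 164 TPM against 197 and 75.0 TPM. As a share of the 3, Atp5g3 held 63.6% and 62.8% in YFP+ and 52.8% and 39.7% in YFP- libraries, and Atp5g2 held 28.0% and 25.2% against 33.6% and 48.9%. In each the groups did not overlap. Atp5g1 held 8.37% and 11.96% against 13.7% and 11.5%, which overlapped.

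The balance between complexes was compared within each library, where a single scaling factor per library plays no part. Quantile normalization and loess change values by level, and the shares were not taken under them. The median differences of complexes IV and I were 0.20 and -0.50 on the deposited scale. They lay close together under quantile normalization (0.98 and 0.89) and loess (0.72 and 0.67). Complex IV held 32.0% and 41.8% of the summed level of complexes I to V in YFP+ and 27.7% and 19.8% in YFP- libraries, 36.9 ± 6.92% against 23.8 ± 5.65% (SD, n = 2 each). Complex I held 21.7% and 17.0% against 26.6% and 24.3%, 19.3 ± 3.33% against 25.4 ± 1.64%. Neither overlapped between groups. The shares sum to a fixed total, so the share of complex I moves with that of complex IV: among complexes I, II, III and V alone complex I held 31.9% and 29.2% in YFP+ and 36.8% and 30.2% in YFP- libraries, which overlapped. The differences of 13.15 and -6.08 percentage points were larger than the pooled SD of 6.31 and 2.63 points, but with 2 libraries on each side the smallest p of an exact two-sided permutation test is 0.333. Complex III (10.9% and 10.7% against 11.7% and 10.7%), complex II (4.11% and 1.83% against 3.67% and 7.66%) and complex V (31.2% and 28.6% against 30.3% and 37.6%) overlapped.

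**Figure D3:**
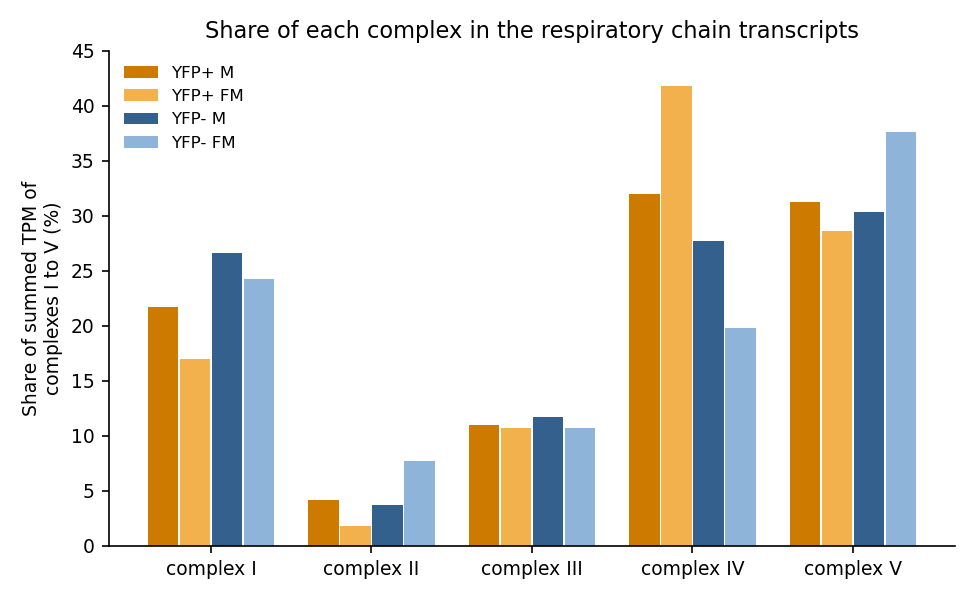
Share of each complex in the summed TPM of complexes I to V, in percent, with 1 bar per library. Complex IV is higher and complex I lower in both YFP+ libraries than in either YFP- library.

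The complex IV share rested on few genes. Without Cox5a it was 26.6% and 35.6% in YFP+ and 25.4% and 18.5% in YFP- libraries, still without overlap. Without Cox5a, Cox8a, Cox6a1 and Cox4i1 it was 13.4% and 14.9% against 15.0% and 10.2%, which overlapped. Counting subunits alone left the difference at 13.48 points for complex IV and -6.09 points for complex I.

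Ratios between subunits of 1 complex were also taken within each library. The pairs were chosen after their values were seen and mostly set a subunit of low against one of high difference, so the order of the groups in them follows from that choice and is a description. Lower in YFP+ libraries were the ratios of Ndufs1 to Ndufa2, Sdha to Sdhb, Uqcrc2 to Uqcr10 and Atp5a1 to Atp5k (2.65 and 1.39 against 3.38 and 13.6). In each of these the first gene has the longer transcript. In that order the lengths are 2661 against 572, 2900 against 1142, 1896 against 434 and 2471 against 371 bases. The part of length in these ratios was not tested. The ratio of the 2 large F1 subunits, Atp5a1 to Atp5b, was 0.704 and 0.564 against 0.711 and 0.794, and Cox8a to Cox4i1 was 1.35 and 1.68 against 1.02 and 0.894. Atp5b to Atp5g3 overlapped, at 0.935 and 0.536 against 0.859 and 3.82.

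**Figure D4:**
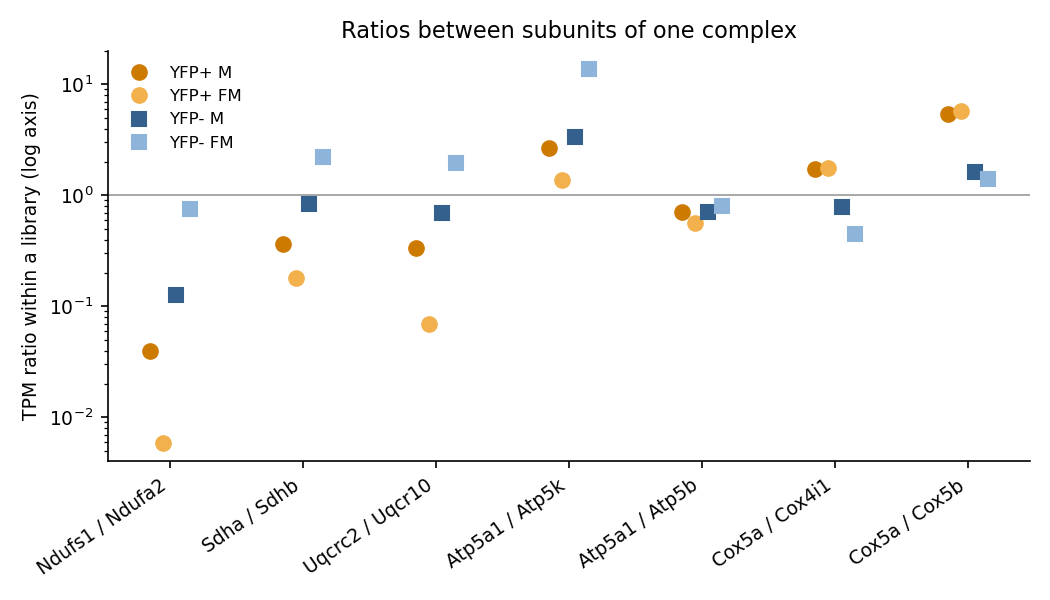
Ratio of the TPM of 2 subunits of the same complex within each library, on a log axis, with 1 point per library. The first 4 pairs and Atp5a1 to Atp5b are lower, and both Cox5a pairs higher, in the YFP+ libraries, and the YFP- FM library is highest in the first 4.

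The length of the transcript moved with the difference between groups, in the members and in all genes. Over the 87 members Spearman's rho between length and difference was -0.52, with -0.05 in the M pair and -0.61 in the FM pair. Over 11742 genes with a length it was -0.35, with -0.17 and -0.41. These are correlations across genes, which share the same 4 libraries and are not independent. The 49 members under 1000 bases had a median difference of 0.79 in the FM pair and -0.73 in the M pair, and the 38 longer members -1.11 and -0.57. For all genes the same split gave -0.47 and -0.81 for 763 short genes and -2.61 and -1.03 for 10979 longer genes. Under 1000 bases were 1 of the 9 core subunits and 23 of the 34 accessory subunits of complexes I and III. The part of length in the differences by role was not tested.

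**Figure D5:**
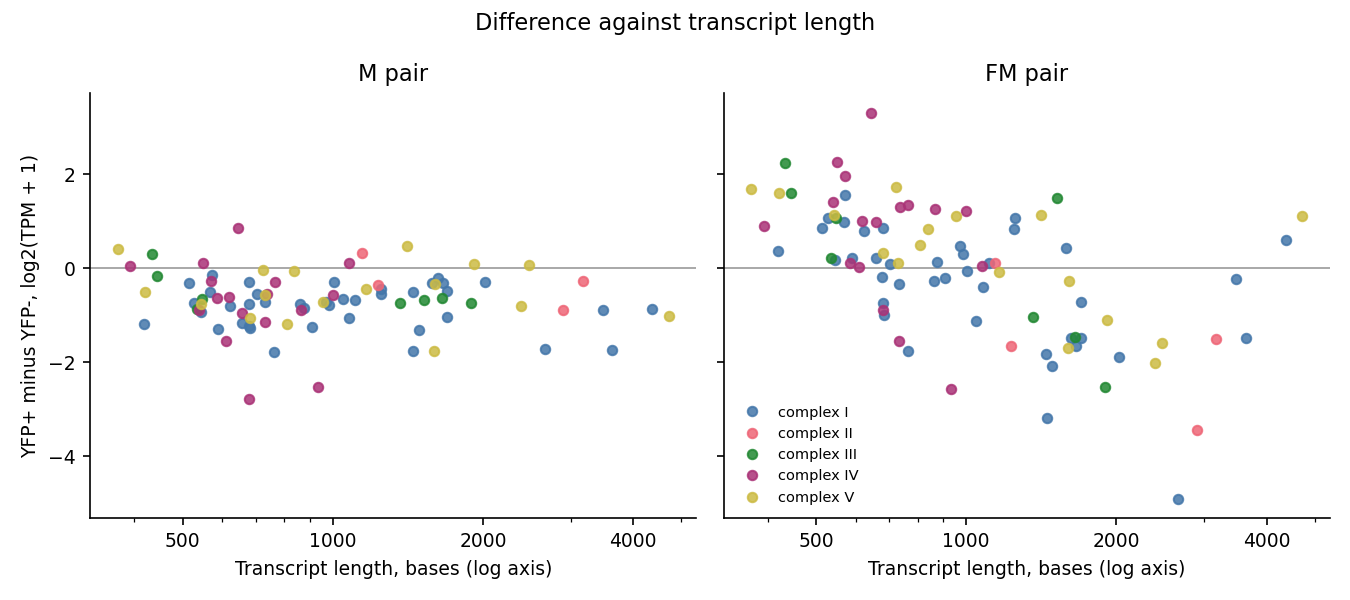
Difference YFP+ minus YFP-, in log2(TPM + 1), against transcript length in bases (log axis), for the tested genes of complexes I to V in the M libraries (left) and the FM libraries (right); each point is a gene. In the M libraries the points lie flat below 0, and in the FM libraries they run from above 0 for short to below 0 for long transcripts.

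Other genes of the pathway were taken from lists of textbook members. A list of 6 other nuclear genes of the chain held subunits and electron carriers, and also Atpif1 and Cox19, which are neither. None of the 6 passed (limma, 0 at an unadjusted p under 0.05; 2 higher under median-ratio scaling), and their median of -0.11 was 1.62 above all genes. Cyc1, the haem subunit of complex III, had 122 and 98.4 TPM in YFP+ against 151 and 142 TPM in YFP- libraries. Cytochrome c, Cycs, had 39.6 and 34.2 TPM against 42.3 and 16.1 TPM, and Atpif1, the inhibitor of complex V, 256 and 217 TPM against 259 and 76.3 TPM. The mitochondrially encoded subunits were not analysed here.

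On the deposited scale the lists outside the complexes had medians nearer to that of all genes than the members had. Under loess this did not hold for protein import, which lay 0.81 above all genes against 0.67 for the members, and assembly factors of complexes II to V lay 0.61 above. The lower calls named here for assembly factors and ubiquinone synthesis numbered 0 under quantile normalization, median-ratio scaling and loess, and median-ratio scaling called 1 gene higher in each of the lists of assembly factors of complexes II to V and of ubiquinone synthesis. Assembly factors of complexes II to V had 0 higher and 3 lower of 32 (Sco1 and Cox11, which deliver copper to complex IV, and Lrpprc, which binds mitochondrial mRNA), with a median of -1.35. Other complex I assembly factors had 0 higher and 1 lower of 7, Tmem126b (median -1.69). Enzymes that feed electrons to ubiquinone had none of 6 called (0 higher and 3 lower at an unadjusted p under 0.05, limma; 1 higher under median-ratio scaling), with a median of -1.94. Ubiquinone synthesis had 0 higher and 2 lower of 13, Pdss1 and Pdss2, which make its side chain (median -1.38). Mitochondrial protein import had none of 19 called (0 higher and 1 lower at an unadjusted p under 0.05, limma; 2 higher under median-ratio scaling), with a median of -1.03. In each of these lists the share called lower was below the 39.5% of all genes.

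The tricarboxylic acid cycle makes the NADH and succinate used by the chain. It had 0 higher and 3 lower of 17 (39.5% of all genes were called lower): Dld, Sucla2 and Suclg2. None was called under quantile normalization, median-ratio scaling or loess. The cycle's median of -1.94 lay 0.21 below that of all genes on the deposited scale and 0.41 above it under median-ratio scaling. Citrate synthase, Cs, had 87.1 and 30.2 TPM in YFP+ against 135 and 299 TPM in YFP- libraries. Among regulators of mitochondrial genes 0 were higher and 2 lower of 13, where 39.5% of all genes were called lower. The 2 were Gabpa and Gabpb1, which together form an ETS factor known from promoters of complex IV (log2 differences -2.60 and -2.96). Neither was called under quantile normalization, median-ratio scaling or loess. There Ppargc1b, a coactivator, was called higher instead (limma adjusted p = 0.0349, 0.0101 and 0.0463), and under median-ratio scaling Esrra, the receptor it works with, was too (0.0277). Nrf1, whose motif is shown above, had 10.4 and 3.38 TPM against 20.1 and 45.8 TPM.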

How the data were processed

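Total RNA of 4 libraries of sorted Kupffer cells was sequenced, and groups follow the genotype label. Per the file headers, the authors deposited coverage, FPKM and TPM per gene. The submitters' processing notes name HISAT (no version) and GRCm38/mm10; for the abundance program, library kit and use of strand, nothing is given in the sources used here. Read counts could not be recovered, so depth in reads is unknown.

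The members and lists were chosen with earlier results of these data known. Rows of 1 name were summed, and genes reaching 1 TPM in 2 or more libraries (12251 of 23337) entered limma 3.58.1 (R 4.3.3) on the scale log2(TPM + 1) (mean trend, YFP group only, Benjamini-Hochberg, threshold 0.05); the pseudocount of 1 understates differences of low genes. The prior degrees of freedom were infinite, so the p-values rest on the trend over all genes. On data simulated for this comparison over 12251 genes, the test called 96% of 50 genes at a log2 change of -6, 32% at -4 and 0% at -2 or 2. There 12051 genes had no change, while in the data 39.5% of tested genes were called lower. The simulated shares therefore do not carry over to the data, where Cox5a passed at 2.08. Named genes are, per complex, the tested subunit of highest mean level and those of lowest and highest difference, all of complex II, the tissue isoform sets, and the lowest and highest Ndufaf factor; others were chosen after their values were seen. The values of 1 member are not reported here. Alternatives were another pseudocount or filter, quantile, median-ratio and loess scaling, FPKM, the title start as a block, and each library left out; subunits alone and Ndufa4 in complex I were added after seeing the data. Promoters came from RefSeq (GRCm38.p6; transcribed bases were left out) and transcript lengths from GENCODE M21, which matched all 87 tested members. Summaries were made in Python 3.11.15 with NumPy 2.4.6, pandas 2.3.3 and SciPy 1.17.1, and plots with matplotlib 3.10.9.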

Additional observations from a re-analysis of the deposited data

Results flagged for a closer look

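The summed level of the members differed between YFP+ and YFP- libraries in opposite directions in the M and FM libraries, with 1 library of each kind per pair; these differences were not tested. Over all members the log2 ratio of YFP+ to YFP- was -0.38 in the M pair and 0.63 in the FM pair, which differ by 1.01. The gap was 1.89 for complex IV (-0.17 and 1.72), 1.12 for complex III (-0.48 and 0.64), 0.79 for complex I (-0.67 and 0.12) and 0.58 for complex V (-0.34 and 0.24). Complex II was lower in YFP+ in both pairs, at 634 and 290.0 TPM against 737 and 780.5 TPM, and was not taken up for that reason.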

How the results depend on the processing

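Over all genes, 148 were called higher under quantile normalization, 689 under median-ratio scaling, 115 on FPKM and 23 with the block. Called lower were 3078 with a pseudocount of 0.1, 2902 with a filter at 5 TPM, 205 under quantile normalization, 723 under median-ratio scaling, 40 under loess and 1726 with the block. Members called higher numbered 0 without a filter, under loess and with the block (at an unadjusted p under 0.05, 1 on the deposited scale), and 16 under median-ratio scaling (7 of complex I, 1 of II, 2 of III, 3 of IV and 3 of V). Members called lower numbered 3 with a pseudocount of 0.1, 2 with the 5 TPM filter, 0 under quantile normalization and loess, 1 under median-ratio scaling, 2 with the block and 2 among subunits alone. Of these, complex I held 1 with the smaller pseudocount, 1 among subunits and 0 under quantile normalization, median-ratio scaling, loess and the block. Complex IV had 0 higher without a filter, under loess and with the block. It had 0 lower with the 5 TPM filter, quantile normalization and loess, and 1 lower under median-ratio scaling, on FPKM and among subunits.

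The median over all genes was -2.31 with a pseudocount of 0.1, -0.032 under quantile normalization, -0.082 under median-ratio scaling and -0.0088 under loess. The members' median was 0.88 under quantile normalization, 1.94 under median-ratio scaling, 0.66 under loess and 0.22 on FPKM. In the same order it was 0.89, 1.76, 0.67 and 0.017 for complex I and 0.73, 2.22, 0.45 and 0.48 for complex III. For complex V it was 0.68, 2.07, 0.56 and 0.31, and 0.052 over subunits alone. For complex II it was 0.15 under quantile normalization, 1.33 under median-ratio scaling and -0.087 under loess. For complex IV it was 0.98 under quantile normalization, 2.47 under median-ratio scaling, 0.72 under loess and 0.73 on FPKM. The cause of these changes was not tested.

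With 1 library left out, the lone library being assumed to vary like the others, 12 to 71 genes were called higher and 24 to 8280 lower. Among members 0 to 1 were higher and 0 to 10 lower, with 0 to 5 lower in complex I, 0 to 1 in complexes II, III and V and 0 to 2 in complex IV, and 0 to 1 higher in complex IV. Without YFP+ M 10 members were lower, and without YFP- FM none was called. Medians ranged from -0.77 to 0.39 over members, -1.11 to 0.20 for complex I, -0.80 to 0.97 for III, -0.51 to 1.13 for IV and -0.61 to 0.52 for V. Positive values came without YFP- M for members and complexes I, III and V, and without YFP+ FM for III and V; the negative value of complex IV came without YFP- FM.

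The labels do not say what libraries with the same title start share, and their deviations from the group means had a correlation of -0.01 over 12251 genes. With the start as a replicate block 2 members were called, Cox4i2 and Ndufa4l2, both lower. Among the genes named by rule, 9 calls were gained and 29 lost over the alternatives, and 322 values stayed on their side of the threshold. The sign differed in 42 of 360 values, 10 under median-ratio scaling, 10 without YFP- FM and 7 under quantile normalization, and none of these had passed in either setting. Genes named otherwise were not counted, and some of their calls changed sign. Ndufaf4, Sco1 and Cox11, called lower on the deposited scale, were at 0.071, 0.14 and 0.15 under quantile normalization and did not pass there. Depth in reads is unknown, so no limit of detection was set.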
